A study of Mus musculus with 8 samples.

Results

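Globin genes and a pair of red cell genes, Alas2 and Slc4a1, were followed in embryonic mouse cerebral cortex with and without Taf8. The rule named 9 genes, and 8 of them were matched by Entrez number among the 27179 genes of the count table: the alpha-like globins Hba-x, Hba-a1 and Hba-a2, the beta-like globins Hbb-y, Hbb-bh1 and Hbb-bs, and Alas2 and Slc4a1. Hbb-bt was not analysed here. All 8 passed the filter on low counts. Polyadenylated RNA was sequenced as stranded libraries from 4 Taf8-deleted embryos, whose genotype the labels give as Taf8 -/lox, and from 4 wild-type embryos, Taf8 +/+, with a separate embryo behind each library. The sources used here do not give the embryonic day, the strain or the Cre driver that recombines the lox allele, so whether the red cells in these tissue pieces also lacked Taf8 is not known.

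Haemoglobin is a tetramer of alpha-like and beta-like chains. In the mouse the first red cells, made in the yolk sac, carry the embryonic chains encoded by Hba-x (zeta), Hbb-y (epsilon-y) and Hbb-bh1 (beta-h1) and also make adult alpha chains, and the red cells made later in the fetal liver carry the adult chains encoded by Hba-a1, Hba-a2 and the adult beta genes. Alas2 encodes the erythroid enzyme of the first step of heme synthesis, and Slc4a1 encodes band 3, the anion exchanger of the red cell membrane. In brain tissue, red cells in the vessels are a known source of these transcripts.

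Libraries held 26312505 to 65523487 counts in genes, so 3 counts correspond to 0.0458 to 0.114 CPM, the usual depth-scaled unit of read counts, and this floor reflects counting error alone. Taf8 was at 0.791, 0.746, 0.486 and 0.547 CPM in the Taf8-deleted libraries, against 32.0 to 38.5 CPM in wild-type libraries (log2 fold change -5.75, SE 0.12, edgeR adjusted p = 1.45e-09). The cortical marker genes fixed as a tissue check, Emx1 and Tbr1 among them, were detected in all 8 libraries, with a summed level of 3963 to 4460 CPM in Taf8-deleted libraries and 5030 to 5254 CPM in wild-type libraries. Wild-type replicate 2 stood apart in a set of sparse red cell genes described further on, where values without it are given. The first part of the animal number was the same in wild-type replicates 1 to 3 (408.4, 408.5 and 408.6), and no first part occurred in both groups. The labels do not say what that part marks. If it marks a litter, litter cannot be told apart from the genotype, and wild-type replicates 1 to 3 would be littermates. The tests used here treat all libraries as independent.

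The beta-like members lie together on chromosome 7 of mm10, with Hbb-bs at 103826523 to 103827928, Hbb-bh1 at 103841638 to 103843162 and Hbb-y at 103851754 to 103853207. The alpha-like members lie on chromosome 11, with Hba-x at 32276600 to 32278116, Hba-a1 at 32283672 to 32284486 and Hba-a2 at 32296492 to 32297310. Slc4a1 lies on chromosome 11 at 102348820 to 102365281, and Alas2 on chromosome X at 150547417 to 150570622. The Taf8 protein belongs to TFIID, which recognises core promoters, so the 100 bases upstream of the start of 4 globin genes and of Alas2 are shown, from RefSeq on GRCm38.p6, with matches to the TATA box core TATAA, the CCAAT box CCAAT, the CACCC box CACCC and the GATA core GATAA on either strand in capitals.
Hba-x: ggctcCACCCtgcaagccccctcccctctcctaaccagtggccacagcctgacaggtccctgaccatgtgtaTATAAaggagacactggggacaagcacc
Hba-a1: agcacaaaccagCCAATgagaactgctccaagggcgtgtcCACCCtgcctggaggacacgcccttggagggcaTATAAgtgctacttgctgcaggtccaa
Hbb-y: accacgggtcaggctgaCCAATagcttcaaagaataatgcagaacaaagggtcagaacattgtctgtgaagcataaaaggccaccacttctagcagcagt
Hbb-bs: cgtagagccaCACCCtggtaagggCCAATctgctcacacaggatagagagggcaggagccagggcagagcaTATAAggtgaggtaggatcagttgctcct
Alas2: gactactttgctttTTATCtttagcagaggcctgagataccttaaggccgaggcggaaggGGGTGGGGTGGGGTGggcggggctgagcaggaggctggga

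These windows are chr11:32276500-32276599 (plus strand) for Hba-x, chr11:32283572-32283671 (plus strand) for Hba-a1, chr7:103853208-103853307 (minus strand) for Hbb-y, chr7:103827929-103828028 (minus strand) for Hbb-bs and chrX:150547317-150547416 (plus strand) for Alas2. TATAA ended 24 bases before the start in Hba-x, 23 in Hba-a1 and 25 in Hbb-bs, and its letters were not in the windows of Hbb-y and Alas2. CCAAT was in the windows of Hba-a1, Hbb-y and Hbb-bs, and CACCC in those of Hba-x, Hba-a1 and Hbb-bs. The Alas2 window held CACCC 3 times and GATAA once, all on the opposite strand, and none of the printed globin windows held GATAA. Among the 32851 RefSeq start sites of the table, 10.2% held TATAA in the same 100 bases, 18.9% CCAAT, 27.2% CACCC and 8.55% GATAA. Further upstream than printed, GATAA had its first base at -107 in Hba-x, -182 in Hba-a1 and -209 in Hbb-bs. In Hbb-y it lay at -162 on the opposite strand, and CACCC at -111. The shares over all start sites do not cover that span. The 4 kinds of match did not overlap each other in the printed windows. Of the 8 measured members 6 had an upstream sequence in the table. The Hba-a2 sequence, shifted by 3 bases, was identical to that of Hba-a1 over 97 of 97 bases compared. A match describes the letters and shows no binding.

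Most of the globin transcripts, and Alas2 with them, were higher in Taf8-deleted cortex by about the same factor, 1.35 to 1.54 among the genes that passed the test, and these included both adult-type globins and the embryonic Hbb-y. Of the 8 members 5 passed the test as higher (Hba-a1, Hba-a2, Hbb-bs, Hbb-y and Alas2), 0 passed as lower, and 3 did not pass (Hba-x, Hbb-bh1 and Slc4a1). The log2 fold changes of Taf8-deleted over wild-type ran from 0.35, for the sparse Hbb-bh1, to 0.64 with a median of 0.51, and the median over all 15649 genes tested was 0.01. At the same threshold 59.2% of all genes were called, 29.5% higher and 29.6% lower, by edgeR's quasi-likelihood test with a Benjamini-Hochberg adjusted p under 0.05. In 0 of the 8 members were the groups free of overlap, while 26.6% of all tested genes had every Taf8-deleted library above every wild-type library. The number of members called was 2 without Taf8-deleted replicate 2 and 4 to 6 without any other single library. CPM is relative to all other RNA of a library, so a higher value does not show that a sample held more red cell RNA. In bulk tissue more red cells in a sample and more RNA per red cell also cannot be told apart.

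**Figure D1:**
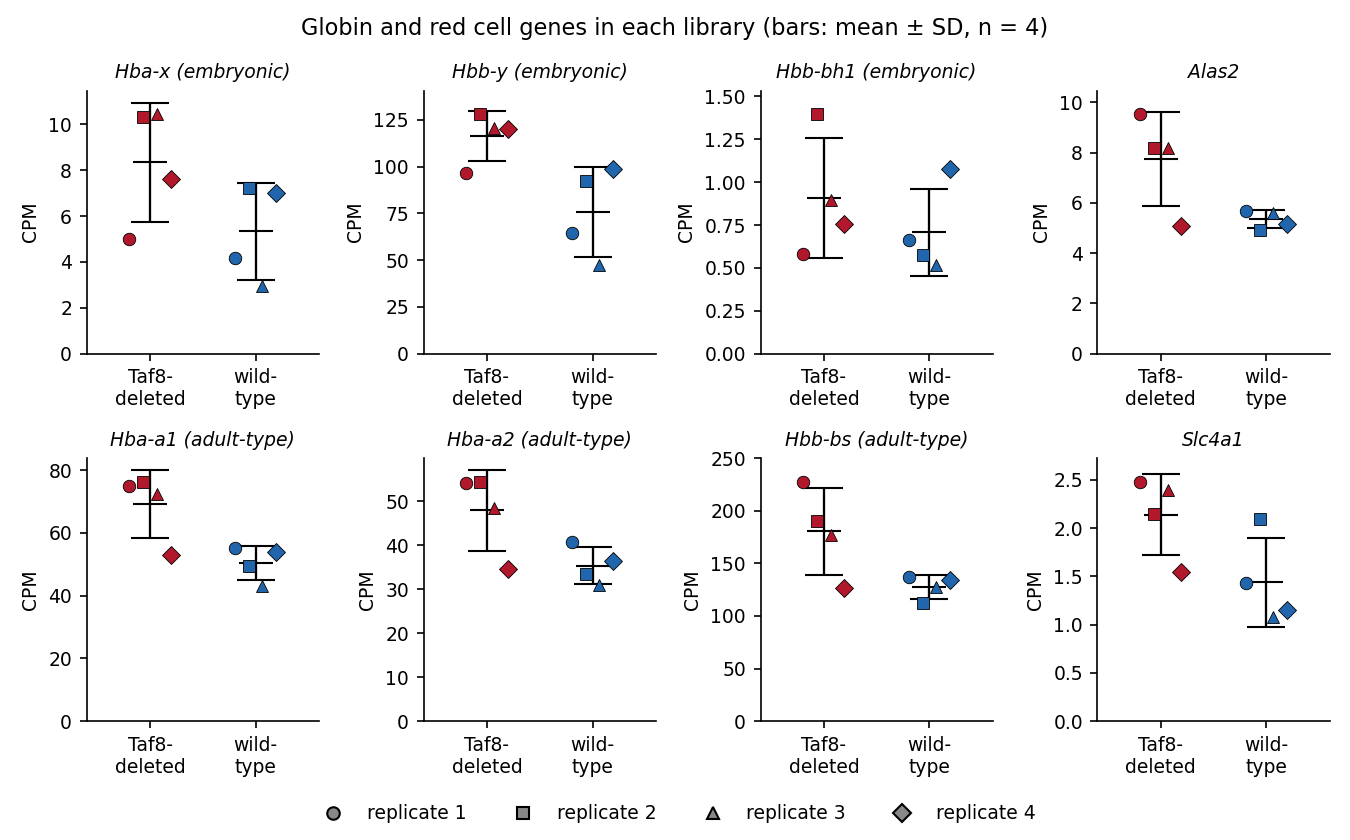
Level of each gene in CPM in each of the 8 libraries, Taf8-deleted left (red) and wild-type right (blue), with marker shapes for replicate numbers and bars for mean ± SD (n = 4). In 7 of the 8 genes, all but Hbb-bh1, 3 of the 4 Taf8-deleted libraries lie above every wild-type library.

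Hba-x, the embryonic alpha-like gene, was at 4.98, 10.3, 10.4 and 7.62 CPM in Taf8-deleted libraries and 4.18, 7.22, 2.96 and 7.01 CPM in wild-type libraries. The groups overlapped through Taf8-deleted replicate 1, which lay between wild-type replicates 1 and 4. The difference, 1.56-fold, did not pass the test (log2 fold change 0.64, SE 0.30, adjusted p = 0.0916 by edgeR). It passed without Taf8-deleted replicate 1 (log2 fold change 0.82, adjusted p = 0.034).

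Hbb-y, the main embryonic beta-like gene, was at 96.8, 127.9, 120.7 and 120.0 CPM in Taf8-deleted libraries, against 64.8, 92.1, 47.6 and 98.9 CPM in wild-type libraries. Taf8-deleted replicate 1 lay just below the highest wild-type library, and the other 3 lay above all of them. Hbb-y was 1.54-fold higher (log2 fold change 0.62, SE 0.20, edgeR adjusted p = 0.0191). The call was lost without Taf8-deleted replicate 2 (adjusted p = 0.0552) and without wild-type replicate 1 (adjusted p = 0.0530) and kept in the other 6 omissions of a library.

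Hbb-bh1, the other embryonic beta-like gene, was sparse, with 22 to 43 counts in Taf8-deleted libraries and 20 to 41 counts in wild-type libraries. Its level was 0.580, 1.40, 0.897 and 0.755 CPM in Taf8-deleted libraries and 0.664, 0.573, 0.516 and 1.08 CPM in wild-type libraries, with means of 0.907 ± 0.351 CPM in Taf8-deleted cortex and 0.707 ± 0.254 CPM in wild-type cortex (SD, n = 4 each), with widely overlapping groups. No difference was detectable at this depth (log2 fold change 0.35, SE 0.32, edgeR adjusted p = 0.358). The log2 fold change was 0.061 without Taf8-deleted replicate 2 and 0.62 without wild-type replicate 4.

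The adult alpha-globin gene Hba-a1 was at 75.0, 76.2, 72.5 and 53.0 CPM in Taf8-deleted libraries, against 55.1, 49.6, 42.9 and 53.9 CPM in wild-type libraries. Replicate 4 of the Taf8-deleted group fell inside the wild-type range and the other 3 lay above it. Hba-a1 was 1.37-fold higher (log2 fold change 0.46, SE 0.12, edgeR adjusted p = 0.00622), and it kept its call whichever library was left out. Hba-a2, which encodes the same chain from a near-identical copy, was at 54.1, 54.4, 48.4 and 34.6 CPM in Taf8-deleted libraries and 40.7, 33.6, 30.9 and 36.4 CPM in wild-type libraries. The order of the Taf8-deleted libraries was much the same as for Hba-a1, again with replicate 4 inside the wild-type range, and the gene was 1.35-fold higher (edgeR adjusted p = 0.0177). Reads can be shared or lost between these copies, so their separate levels are uncertain. The call of Hba-a2 was lost without Taf8-deleted replicate 1 (adjusted p = 0.0559) or 2 (0.0582) and without wild-type replicate 2 (0.0555).

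Hbb-bs, the adult beta-globin gene with the highest counts of any member, was at 227.3, 190.2, 176.7 and 126.7 CPM in Taf8-deleted libraries and 137.2, 112.1, 127.2 and 133.8 CPM in wild-type libraries. Here too Taf8-deleted replicate 4 fell within the wild-type range while replicates 1 to 3 lay above it. Hbb-bs was 1.41-fold higher (log2 fold change 0.50, SE 0.14, edgeR adjusted p = 0.0126), and the call held in all 8 omissions of a library. A further adult beta-like row, Entrez 15129, which RefSeq names Hbb-b1 and which is not a member, was 1.71-fold higher, at 65.3 ± 17.2 CPM in Taf8-deleted cortex and 38.1 ± 7.67 CPM in wild-type cortex (SD, n = 4 each, edgeR adjusted p = 0.00572). The sources used here do not say where in the genome its reads were counted, and adult beta genes are close enough to share reads.

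Alas2 was at 9.52, 8.18, 8.19 and 5.09 CPM in Taf8-deleted libraries, against 5.67, 4.93, 5.61 and 5.17 CPM in wild-type libraries. Its pattern was that of the adult-type globins, with replicate 4 of the Taf8-deleted group among the wild-type libraries. Alas2 was 1.44-fold higher (log2 fold change 0.53, SE 0.17, edgeR adjusted p = 0.0194). Its call was lost with limma voom (adjusted p = 0.0627) and in 4 of 8 omissions, those of Taf8-deleted replicates 1, 2 and 3 and of wild-type replicate 2 (adjusted p = 0.0506 to 0.0676).

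Slc4a1 was at 2.48, 2.14, 2.39 and 1.55 CPM in Taf8-deleted libraries, against 1.43, 2.09, 1.08 and 1.16 CPM in wild-type libraries. The groups overlapped because wild-type replicate 2 lay above Taf8-deleted replicate 4. The difference, 1.49-fold, missed the threshold (log2 fold change 0.57, SE 0.24, edgeR adjusted p = 0.0585). Slc4a1 passed the test without wild-type replicate 2 (log2 fold change 0.80, adjusted p = 0.01) and without Taf8-deleted replicate 4 (0.70, adjusted p = 0.0258).

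Per kilobase of gene length, the order of levels in wild-type cortex was Hbb-bs, Hbb-y, Hba-a1, Hba-a2, Hba-x, Alas2, Hbb-bh1 and Slc4a1. Hbb-bs stood at 282 ± 65.1 CPM per kb in Taf8-deleted cortex and 199.6 ± 17.5 in wild-type cortex, and Hbb-y at 188 ± 21.8 and 123 ± 38.7 in the same order of groups. Slc4a1, at the other end, stood at 0.470 ± 0.0923 CPM per kb in Taf8-deleted cortex and 0.316 ± 0.101 in wild-type cortex. Among the members each gene lay above the next in all 8 libraries, except that Hbb-b1, if added to the order, exchanged places with Hba-a2: Hba-a2 was above it in only 1 of 8 libraries per kb.

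The comparison of embryonic with adult-type globin used shares of counts within a library, which do not depend on scaling or on how many red cells a sample held. Embryonic beta-like globin, Hbb-y and Hbb-bh1 together, made up 30.0%, 40.5%, 40.8% and 48.8% of the beta-like counts in Taf8-deleted libraries and 32.3%, 45.3%, 27.4% and 42.8% in wild-type libraries. The means were 40.0 ± 7.71% in Taf8-deleted cortex and 36.9 ± 8.47% in wild-type cortex (SD, n = 4 each), and the groups overlapped almost wholly. On the log2 scale of embryonic over adult counts the difference of Taf8-deleted minus wild-type was 0.19, with an exact permutation interval of -0.95 to 1.33 at 97.1% confidence (exact two-sided permutation p = 0.629, adjusted p = 0.891 over the 6 ratios tested).

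Hba-x made up 3.72%, 7.32%, 7.94% and 8.005% of the alpha-like counts in Taf8-deleted libraries and 4.18%, 7.996%, 3.85% and 7.21% in wild-type libraries. Both groups thus held libraries near 4% and libraries between 7% and 8%. The difference on the log2 scale was 0.24, with an interval of -1.17 to 1.12 (exact two-sided permutation p = 0.714, adjusted p = 0.891 over the 6 ratios). Over all 6 measured globins the embryonic share was 30.2 ± 6.20% in Taf8-deleted cortex and 27.4 ± 6.74% in wild-type cortex (SD, n = 4 each). That difference was 0.21 on the log2 scale, with an interval of -0.83 to 1.24 (exact two-sided permutation p = 0.571, adjusted p = 0.891). Single libraries moved these differences: without Taf8-deleted replicate 1 they were 0.40 for the beta-like share, 0.52 for the alpha-like share and 0.40 for all globins, and without wild-type replicate 3 they were -0.0098, 0.056 and 0.030 in the same order. The intervals are wide in both directions, so the data do not show that the groups had like shares. The smallest p that 4 against 4 libraries allow is 0.0286.

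**Figure D2:**
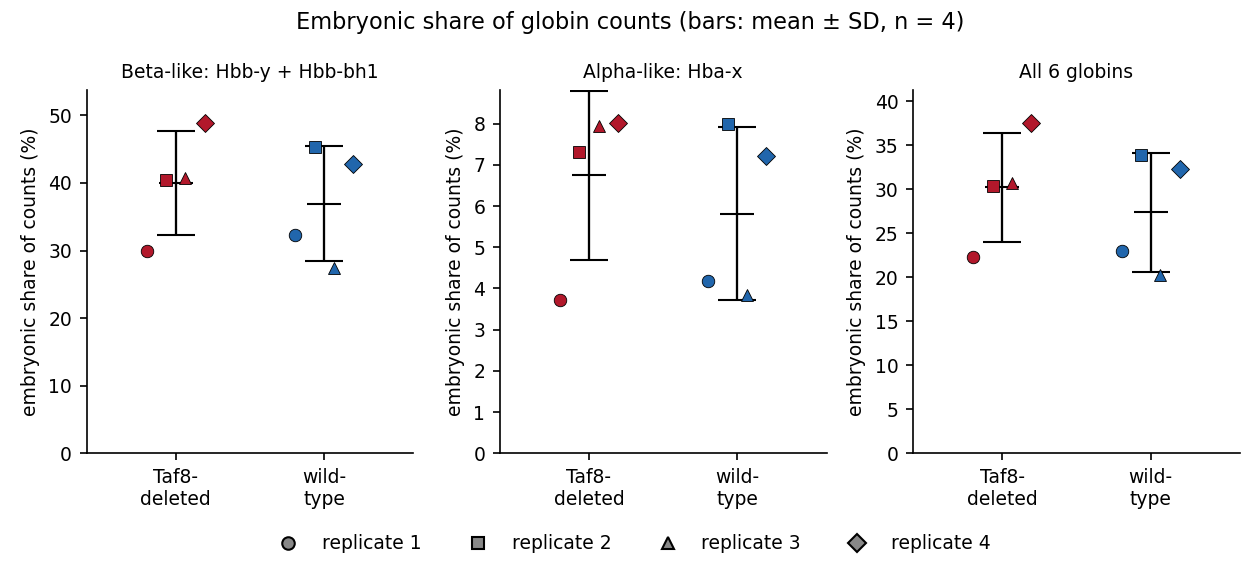
Embryonic share of globin counts (%) in each library for the beta-like genes, the alpha-like genes and all 6 measured globins, Taf8-deleted left and wild-type right, bars mean ± SD (n = 4). Each group spans nearly the same range, 30.0% to 48.8% in Taf8-deleted and 27.4% to 45.3% in wild-type libraries for the beta-like genes.

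The beta-like share depends on which rows count as adult. With Hbb-b1 added to the adult total, the embryonic beta-like share fell to a range of 24.6% to 41.5% in Taf8-deleted libraries and 22.3% to 38.3% in wild-type libraries, and the log2 difference was 0.12 (exact permutation p = 0.771). Reads of adult genes with near-identical copies may have been lost in counting, a step the sources used here do not describe, and such a loss would raise the embryonic share of every library.

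The balance of alpha-like to beta-like globin varied much less than the embryonic share. Alpha-like genes gave 29.2%, 30.6%, 30.6% and 27.8% of globin counts in Taf8-deleted libraries and 33.0%, 30.6%, 30.5% and 29.4% in wild-type libraries. The log2 difference was -0.09, with an interval of -0.36 to 0.08 (exact two-sided permutation p = 0.229, adjusted p = 0.891 over the 6 ratios). Alas2 counts per globin count were 1.81 ± 0.248% in Taf8-deleted cortex and 1.83 ± 0.292% in wild-type cortex (SD, n = 4 each), with a log2 difference of -0.02 and an interval of -0.58 to 0.41 (exact permutation p = 0.943, adjusted p = 0.943). Slc4a1 counts per globin count were 0.503 ± 0.0528% in Taf8-deleted cortex and 0.489 ± 0.155% in wild-type cortex (SD, n = 4 each), with a log2 difference of 0.08 and an interval of -0.65 to 0.67 (exact permutation p = 0.743, adjusted p = 0.891). None of the 6 ratios passed at an adjusted p under 0.05. With a smallest possible permutation p of 0.0286, no ratio could have passed alone after adjustment over 6 ratios. The test thus does not show that the groups were alike.

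Within a genotype, the embryonic and the adult-type globins followed different orders of libraries. The summed embryonic globins were at 102, 139.6, 132 and 128 CPM in Taf8-deleted libraries and 69.6, 99.9, 51.1 and 107 CPM in wild-type libraries. The summed adult-type globins were at 356, 321, 298 and 214 CPM in Taf8-deleted libraries and 233, 195, 201 and 224 CPM in wild-type libraries. Taf8-deleted replicate 1 thus had the lowest embryonic sum and the highest adult sum of its group, while replicate 4 had the lowest adult sum with an embryonic sum above every wild-type library.

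**Figure D3:**
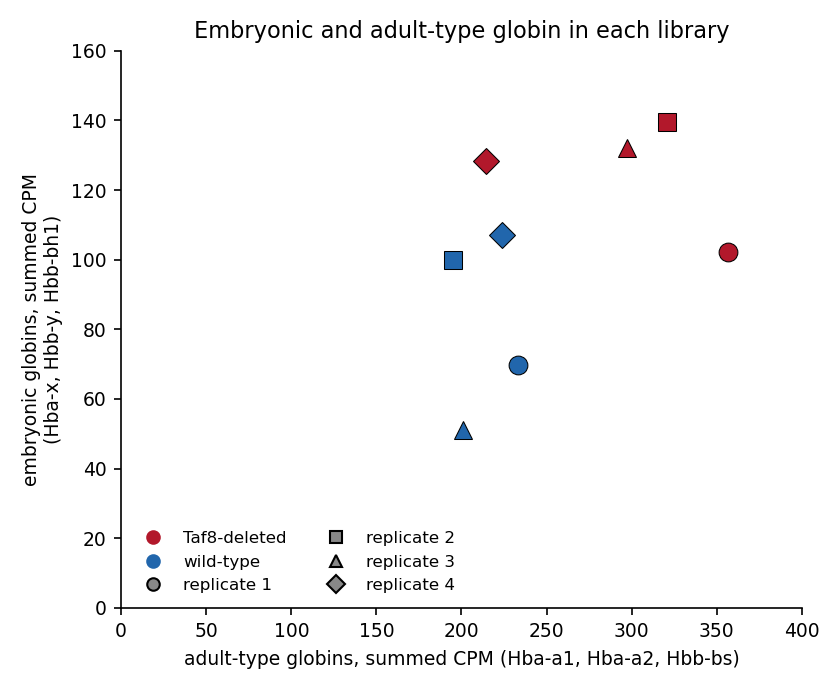
Summed embryonic globins against summed adult-type globins in CPM for each of the 8 libraries, red for Taf8-deleted and blue for wild-type, with marker shapes for replicate numbers. Taf8-deleted replicates 1 to 3 lie to the right of all wild-type libraries, and replicate 4 lies above them at an adult-type level of 214 CPM.

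After each group's mean was removed, Pearson's r over the 8 libraries with the adult-type sum was 0.98 for Hbb-bs, 0.95 for Hba-a2, 0.90 for Hba-a1 and 0.94 for Alas2, and 0.40 for Slc4a1. With the same sum, r was -0.11 for Hbb-y and -0.13 for Hba-x. With the embryonic sum r was 1.00 for Hbb-y, 0.94 for Hba-x and 0.65 for Hbb-bh1, and -0.33 for Alas2. Slc4a1 followed neither sum closely, with r 0.28 for the embryonic one. The globins are part of the sums they are set against, and all points share the scaling of their library, so these values are descriptions. Hba-x counts were 5.15% to 8.64% of Hbb-y counts in Taf8-deleted libraries and 6.21% to 7.84% in wild-type libraries, a narrower span than that of Hbb-y counts to Hbb-bs counts, at 42.6% to 94.7% and 37.4% to 82.2% in the same order of groups. Among the 13907 other tested genes with a mean of at least 1 CPM, the 5 most like the adult-type sum were Cdan1, Adipor2, Disp3, Adora2a and Entpd3 (r 0.95 to 0.97). Cdan1 is known for its mutation in a human congenital anaemia. The 5 most like the embryonic sum were Mnat1, Coro2b, Bckdhb, Ssu72 and Ap3s2 (r 0.96 to 0.99). Among so many genes and 8 libraries, values of this size are picked as the highest and carry no test.

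Genes with a role in red cells that other cells also use went in both directions. Of 14 tested genes of heme synthesis and mitochondrial heme transport, leaving out Alas2, 6 were higher and 4 lower, and 4 missed the threshold. Their median was 0.14 on the log2 scale. Uros, an enzyme of heme synthesis, rose 1.75-fold to 44.8 ± 1.099 CPM in Taf8-deleted cortex, against 25.5 ± 1.24 CPM in wild-type cortex (SD, n = 4 each, edgeR adjusted p = 3.36e-07). Alas1, the housekeeping counterpart of Alas2, was 1.35-fold higher, and the glycine carrier gene Slc25a38 was 1.30-fold lower. In these 3 genes the groups did not overlap, as in 26.6% of all tested genes upward and 27.0% downward.

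Genes of the red cell membrane and its skeleton, Slc4a1 left out, were lower in 6 of 13 tested and higher in 1, with a median log2 fold change of -0.27. The lower ones included Ank1, which encodes ankyrin-1, at 14.2 ± 0.287 CPM in Taf8-deleted cortex and 23.6 ± 2.16 CPM in wild-type cortex, the adducin gene Add2 (1.21-fold lower) and the dematin gene Dmtn (1.28-fold lower). Epb41, which encodes protein 4.1R, was 1.17-fold higher. The count of higher genes was 3 without Taf8-deleted replicate 4 and 2 without wild-type replicate 2 or 4. Neurons are also known to express ankyrin-1, adducin and dematin genes, and neuron and progenitor markers of the tissue check were lower in 8 cases of 12 and higher in 1 in the same libraries. Their part in this list's median was not tested.

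Of 14 tested erythroid transcription factors and regulators of the globin switch, 5 were higher, 4 lower and 5 missed the threshold (median log2 fold change 0.08). Bcl11a, a repressor of embryonic globin in red cells and also a transcription factor of cortical neurons, fell 1.73-fold to 223 ± 17.0 CPM in Taf8-deleted cortex, against 386 ± 25.0 CPM in wild-type cortex (SD, n = 4 each, edgeR adjusted p = 2.62e-06). Zbtb7a, another repressor of fetal globin known from human red cells, was 1.25-fold lower, Klf3 was 1.33-fold lower, and Mbd2 was 1.39-fold higher. Sox6, which acts with BCL11A on globin genes, was at 152 ± 4.78 CPM in Taf8-deleted cortex and 145 ± 2.42 CPM in wild-type cortex and did not pass (edgeR adjusted p = 0.136). Klf1, the red cell activator of adult beta globin, was at 0.738, 0.909, 0.561 and 0.830 CPM in Taf8-deleted libraries, against 0.299, 0.598, 0.579 and 0.473 CPM in wild-type libraries. Its groups overlapped in 1 Taf8-deleted library, and its call (log2 fold change 0.62, edgeR adjusted p = 0.0497) was kept in 6 of 16 alternatives. The count of higher genes in this list was 2 without Taf8-deleted replicate 2 or wild-type replicate 1, and 3 without Taf8-deleted replicate 1 or 3 or wild-type replicate 2 or 4.

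Of 14 tested erythroid receptors, enzymes and chaperones 5 were higher, 4 lower and 5 missed the threshold (median log2 fold change -0.10). Cpox and Fech, among the higher ones, were also counted as higher in the heme synthesis list. Bpgm, the red cell enzyme that makes 2,3-bisphosphoglycerate, rose 1.51-fold to 104 ± 3.45 CPM in Taf8-deleted cortex, against 68.8 ± 1.75 CPM in wild-type cortex (SD, n = 4 each, edgeR adjusted p = 6.72e-07). The transferrin receptor gene Tfrc was 1.33-fold higher, the peroxiredoxin gene Prdx2 1.19-fold higher, the ferrochelatase gene Fech 1.19-fold higher and Ube2l6 1.42-fold lower. Epor, the receptor of erythropoietin, was 1.65-fold lower, at 0.580 ± 0.151 CPM in Taf8-deleted cortex and 0.988 ± 0.269 CPM in wild-type cortex, and kept its call in 10 of 16 alternatives (edgeR adjusted p = 0.0368). Of 16 tested genes of iron and heme handling, 5 were higher, 2 lower and 9 missed the threshold (median log2 fold change 0.12). Hmox1, the inducible enzyme that breaks down heme, was 1.32-fold higher (edgeR adjusted p = 0.0161, and 0.0505 without Taf8-deleted replicate 3), while its constitutive counterpart Hmox2 was 1.30-fold lower. Ftl1, the ferritin light chain gene, was 1.24-fold higher, Fbxl5 1.17-fold higher and Aco1, which encodes an iron-sensing regulatory protein, 1.30-fold lower. Without Taf8-deleted replicate 3 the higher genes of this list numbered 3.

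Of 3 tested globins outside the members, 1 was higher (Hbb-b1, above), 1 lower and 1 missed the threshold. Cygb, which encodes cytoglobin, a globin of fibroblasts and some neurons, fell 1.81-fold to 10.7 ± 0.293 CPM in Taf8-deleted cortex, against 19.4 ± 1.97 CPM in wild-type cortex (SD, n = 4 each, edgeR adjusted p = 7.2e-06). Ngb, neuroglobin, was at 0.391 ± 0.213 CPM in Taf8-deleted cortex and 0.413 ± 0.100 CPM in wild-type cortex and did not pass. The theta-globin genes Hbq1a and Hbq1b had 0 to 5 and 1 to 7 counts per library, and the beta-like gene Hbb-bh2 had 0 counts in all 8.

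**Figure D4:**
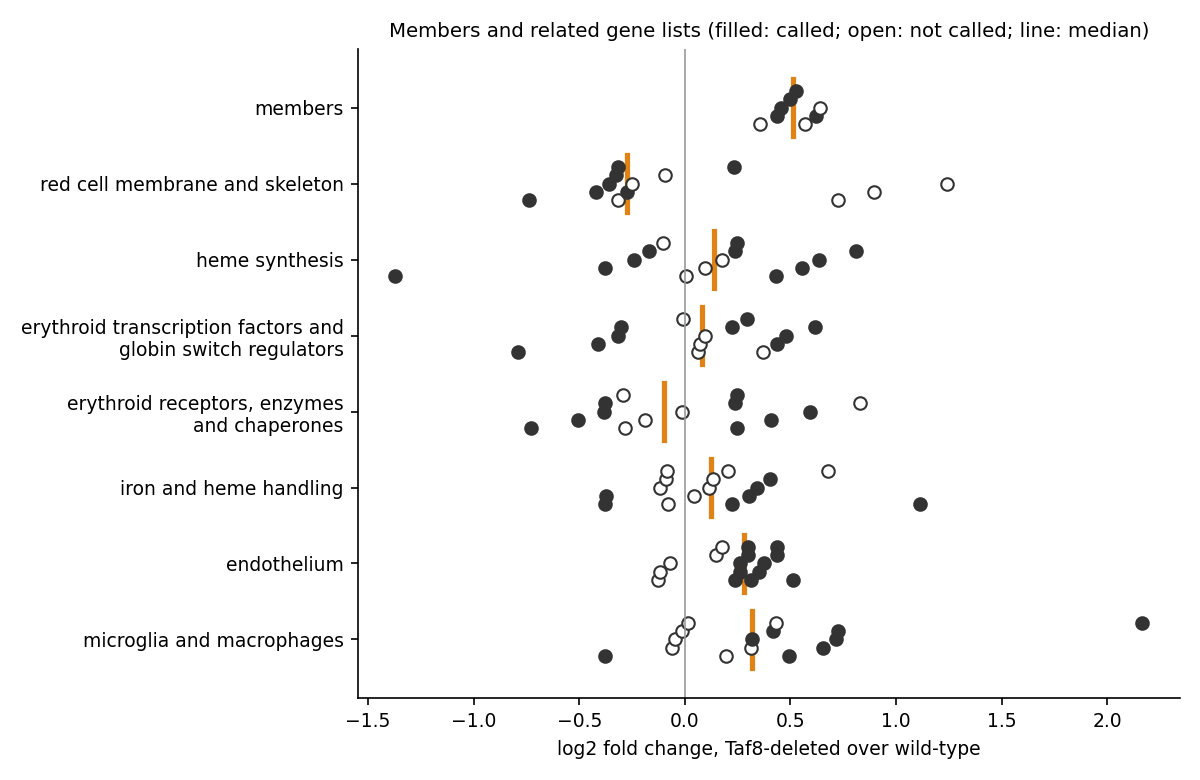
Log2 fold change of Taf8-deleted over wild-type for the 8 members and for each tested gene of 7 related lists, filled where called and open where not, with an orange line at each list's median. The members lie between 0.35 and 0.64, while the lists of broader red cell and heme genes spread to both sides of 0.

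Markers of vessels, microglia and macrophages, meninges and choroid plexus were compared beside the globins. Among all tested genes 29.5% were called higher and 29.6% lower, which is the share to set beside the counts that follow. Of 16 endothelial markers 11 were higher and 0 lower, and 3 were higher at a threshold of 0.01. Their sum was 299, 315, 343 and 271 CPM in Taf8-deleted libraries and 252, 263, 239.6 and 271 CPM in wild-type libraries. Taf8-deleted replicate 4, with adult-type globin inside the wild-type range, also had the lowest endothelial sum of its group. From Taf8-deleted replicate 1 to 3, however, the adult-type sum fell (356, 321 and 298 CPM) while the endothelial sum rose. Cldn5, a tight junction gene of brain vessels, was 1.43-fold higher (edgeR adjusted p = 0.000283), and Cdh5, which encodes VE-cadherin, 1.35-fold higher (edgeR adjusted p = 0.00157). Among 15 markers of microglia and macrophages 7 were higher and 1, the microglial receptor gene Cx3cr1, was lower (summed level 224 to 249.6 CPM in Taf8-deleted and 199 to 237 CPM in wild-type libraries), and among 11 of meningeal fibroblasts 7 were higher and 0 lower (254 to 405 CPM and 187 to 236 CPM in the same order of groups). A single gene made up most of each of these sums. Sall1 alone gave 136 to 151 CPM of the microglia and macrophage sum in Taf8-deleted libraries and 123 to 163 CPM in wild-type libraries. Fn1 alone gave 208 to 239 CPM and 144 to 181 CPM of the meningeal sum in the same order of groups. Choroid plexus markers varied most, from 15.5 to 1262 CPM in Taf8-deleted libraries and from 16.5 to 425 CPM in wild-type libraries, highest in Taf8-deleted replicate 1 and wild-type replicate 4, with 1 of 8, Kl, called higher and 8 of 8 without wild-type replicate 4. Without Taf8-deleted replicate 3 the higher genes numbered 6 for endothelium and 4 for meningeal fibroblasts. A count of 1 lower meningeal gene appeared without Taf8-deleted replicate 1, 3 or 4, and 2 choroid plexus genes were higher without Taf8-deleted replicate 4. How much these tissues contribute to the difference in globin was not tested.

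Of 12 platelet markers 4 could be tested and 1, Itga2b, was higher (2.77 ± 0.385 CPM in Taf8-deleted cortex and 1.28 ± 0.143 CPM in wild-type cortex, SD, n = 4 each, edgeR adjusted p = 9.44e-05), while Pf4 and Ppbp had at most 22 and 8 counts per library. Of 14 markers of blood leukocytes 2 could be tested, and Camp and Cd3e had 0 counts in all 8 libraries. Prtn3 was 4.47-fold higher, at 16.9 ± 0.864 CPM in Taf8-deleted cortex and 3.82 ± 0.583 CPM in wild-type cortex (edgeR adjusted p = 1.27e-07), and Cd79a was 2.12-fold higher at under 1 CPM. Mpo and Elane, which neutrophil precursors make together with Prtn3, had at most 4 counts in any library.

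Defining genes of immature red cells were too sparse to test. Of the listed red cell genes 14 did not pass the filter, Rhag, Rhd, Kel, Hemgn, Pklr, Gata1 and Nfe2 among them. Summed over the 14, Taf8-deleted libraries held 58, 41, 43 and 64 counts and wild-type libraries 23, 159, 66 and 36 counts. In CPM the sum was 1.21 to 1.61 in the Taf8-deleted libraries, and wild-type replicate 2 stood apart at 3.96, with 0.763 to 1.03 in the other 3 wild-type libraries. The genes with the widest gap, picked after their values were seen, were Pklr, the red cell pyruvate kinase gene, with 22 counts in wild-type replicate 2 and at most 4 in any other library, Hemgn with 20 and at most 4, and Rhag with 13 and at most 5. The globin sum of wild-type replicate 2 was 295 CPM, within the 252 to 331 CPM of the other wild-type libraries. Without this library 4 of the 8 members were called higher, and the log2 difference of the embryonic beta-like share was 0.37 (exact permutation p = 0.343, where the smallest possible p is 0.0571). That of the alpha-like share was 0.43 (exact permutation p = 0.343) and that of the share of all globin 0.37 (exact permutation p = 0.314). The log2 difference of Slc4a1 per globin count was then 0.28 (exact permutation p = 0.143).

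**Figure D5:**
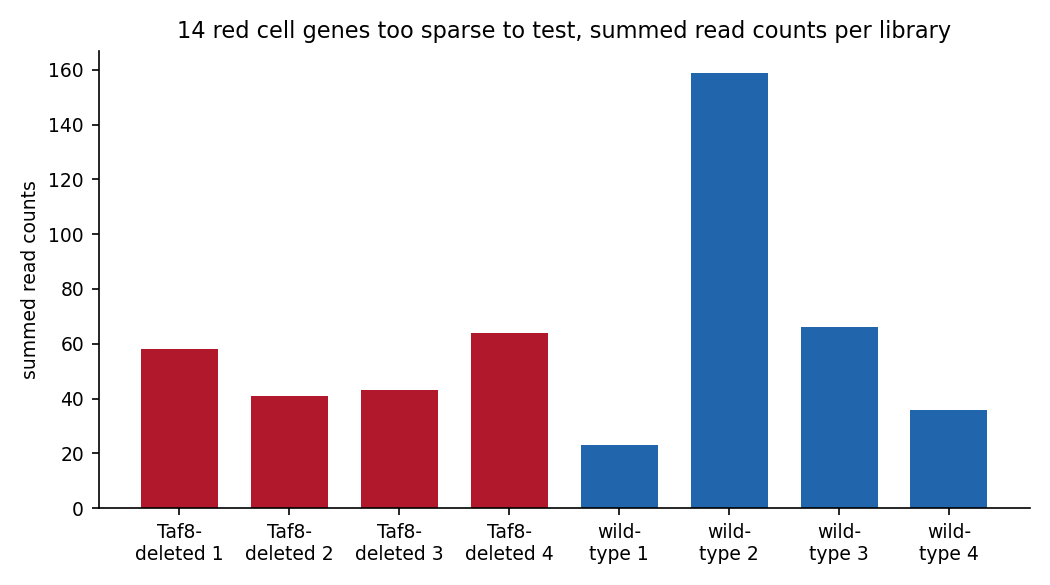
Read counts of the 14 red cell genes below the filter, summed in each library (1 bar each), with Taf8-deleted libraries left and wild-type libraries right. Wild-type replicate 2 holds 159 counts and every other library 23 to 66.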

How the data were processed

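Libraries of 8 embryos were compared, 4 Taf8-deleted and 4 wild-type. The authors deposited raw read counts per gene under Entrez numbers, made with Subread 1.5.0 and featureCounts on mm10 per the submitters' processing notes. The sources used here give neither the gene annotation nor the strand setting, nor how multimapping reads were handled, which bears on near-identical globin copies. Symbols came from a RefSeq table of GRCm38.p6, which matched 25275 of the 27179 genes. Hbb-bt and Ahsp were not analysed here.

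Counts were scaled by TMM, filtered with filterByExpr and tested over 15649 genes with edgeR 4.0.16 (quasi-likelihood test, Benjamini-Hochberg adjustment, threshold 0.05) in R 4.3.3, after a check on simulated data. CPM values use TMM library sizes. Log2 ratios of counts within a library were tested by exact two-sided permutation over the 70 assignments, with intervals by inversion of that test and adjustment over 6 ratios. Likeness used Pearson's r of log2 CPM (prior count 2). Alternatives used RLE, upper-quartile and no scaling, other filters, DESeq2 1.42.0, limma voom 3.58.1, a replicate block and omission of each library.

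The members and lists were chosen with earlier results of these data known. Named genes were the members, Taf8, up to 4 genes of smallest adjusted p in each list and a fixed few (among them Gata1, Klf1, Epor, Tfrc, Bcl11a, Sox6, Hmox1 and Alas1), and further names were chosen after their values were seen. Of the blood and tissue markers, the red cell list had 5 of 9 tested genes higher and 0 lower, with members among them. Some genes that this rule names are not reported here.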

Additional observations from a re-analysis of the deposited data

Results flagged for a closer look

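In 38 groups of 4 libraries examined, 4 held a library far from the other 3 by Dixon's test, and chance flags about 1 in 20 groups. Hba-a1 stood at 52.96 CPM in Taf8-deleted replicate 4, against 72.45 to 76.21 CPM in the other Taf8-deleted libraries. The embryonic share of alpha-like globin was 3.715% in Taf8-deleted replicate 1, against 7.322% to 8.005% in the other Taf8-deleted libraries. Hbb-bh1 counts per Hbb-y count were 0.622% in wild-type replicate 2, against 1.025% to 1.088% in the other wild-type libraries. The summed level of the 14 sparse red cell genes was 3.961 CPM in wild-type replicate 2, against 0.763 to 1.032 CPM in the other wild-type libraries.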

How the results depend on the processing

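The number of members called higher was 1 at a threshold of 0.01, 2 to 6 when a library was left out (2 without Taf8-deleted replicate 2) and 4 to 6 under the other settings. No member's fold change turned its sign in any alternative run. Slc4a1 passed with upper-quartile scaling (adjusted p = 0.0483) and library size alone (0.0443). Among the ratios, 3 turned their sign when a library was left out, all with p far above the threshold: the embryonic beta-like difference was -0.0098 without wild-type replicate 3, within -0.0098 to 0.40. The Alas2-per-globin difference was 0.0757 without Taf8-deleted replicate 4 and 0.0821 without wild-type replicate 3, within -0.0883 to 0.0821. The Slc4a1-per-globin difference was -0.0610 without wild-type replicate 4, within -0.0610 to 0.28. The cause was not tested. With a library left out, the embryonic alpha-like difference ranged from 0.056 to 0.52, that of all globins from 0.030 to 0.40 and that of the alpha-like share from -0.12 to -0.042. Adding Hbb-b1 to the adult total of the other 4 ratios with beta-like globin, an alternative chosen after seeing the data, turned no sign, and gave exact permutation p-values of 0.0571 for the alpha-like share (log2 difference -0.12) and 0.743 to 0.829 for the other 3. With the replicate number as a block, 6 members were called, Slc4a1 being added (adjusted p = 0.0497). Same-numbered libraries had correlations of -0.464 to 0.0138, so the numbers do not pair these embryos. At the threshold of 0.01, 9 list counts moved by over 1.5 times and 19 did not. Low counts limit Hbb-bh1 and Slc4a1, and near-identical copies limit the separate levels of Hba-a1 and Hba-a2.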
